A study of Mus musculus with 15 samples.

Results

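The genes described here encode the proteins of the mitochondrial ribosome. They were chosen by symbol, with earlier results of these data known. The genes are those named Mrpl or Mrps followed by a number that had a probe set annotated with no other gene. Each gene was read from its brightest such probe set. The rule gave 76 of the 18193 genes measured by named probe sets, with 47 symbols of the large subunit (Mrpl) and 29 of the small subunit (Mrps). Of these genes, 42 had more than 1 such probe set, out of 156 in all. Mrpl30 and Mrpl53 were measured only by probe sets shared with another gene and are therefore left out.

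The mitochondrial ribosome translates the few proteins encoded by mitochondrial DNA, all of them subunits of the oxidative phosphorylation complexes. All of its proteins are encoded in the nucleus, made in the cytosol and imported, where they assemble on ribosomal RNAs made inside the organelle. Many descend from bacterial ribosomal proteins, and the others were added during the evolution of mitochondria. Liver cells are rich in mitochondria.

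Expression was measured in mouse cells with Affymetrix arrays, in 5 groups of 3. Mesenchymal stromal cells (MSC) grew in a low-glucose stromal medium that held 10% serum. HD28 cells came from MSC by a hepatogenic protocol: for 7 days the medium held nicotinamide, HGF (20 ng/ml) and bFGF (10 ng/ml), a pair of growth factors, and afterwards ITS+ premix, dexamethasone (1 µmol/L) and the cytokine oncostatin M (20 ng/ml). Cells labelled dHD28 are HD28 cells put back into the stromal medium. The Hepatocyte group is mouse primary hepatocytes in DMEM/F12 with 10% serum. Cells labelled MLC are primary hepatocytes reprogrammed in stromal medium with TGF-β1 at 10, then 5, then 1 ng/ml up to day 28, and kept in stromal medium afterwards. The labels give no strain, age or sex, no harvest time after the return to stromal medium, and do not say whether replicates are separate cultures or animals. The p-values therefore speak for the spread among these samples, which may be technical. The series title asks about the reversibility of hepatic differentiation.

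Values are log2 expression values, and a change is called higher or lower where limma's moderated test gives an adjusted p under 0.05 (Benjamini-Hochberg over all 18193 genes, no fold limit). Hepatocyte markers were at array medians of 13.38 to 13.47 in hepatocytes and 4.12 to 4.43 in MSC, and markers of stromal cells at 4.86 to 6.56 and 10.76 to 10.91. Of the 8 stromal markers, 5 were lower in hepatocytes than in MSC and 1 was higher. Hepatocyte arrays also carried other liver cells: all 7 Kupffer cell markers and all 5 liver endothelial markers were higher than in MSC, with array medians of 6.90 to 8.78 against 3.52 to 3.92 and of 6.19 to 7.5 against 4.44 to 4.78. HD28 replicate 3 stood apart from its group, with a hepatocyte marker median of 12.26 against 3.86 and 4.22. Its Kupffer marker median was 6.10 against 3.45 and 3.73. Signal of the poly-A RNA added before labelling was high (7.35 to 8.50) in 6 arrays, namely MSC 1, HD28 2, dHD28 2, Hepatocyte 1, MLC 1 and MLC 2, and low (4.70 to 5.49) in the other 9. Actin probe sets at the 3' end exceeded those at the 5' end, a gap that widens as RNA degrades, by 0.66 to 1.24 in hepatocytes, 0.94 in HD28 replicate 3 and 0.08 to 0.44 in the other arrays.

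RefSeq promoter windows (build GRCm38.p6) were found for 67 of the 76 genes, and the 250 bases before the start of 4 of them are printed because these genes moved in opposite directions in hepatocytes. Mrpl39 (chr16:84735245-84735494, minus strand) and Mrps22 (chr9:98601680-98601929, minus strand) were higher in hepatocytes than in MSC, Mrpl3 (chr9:105053018-105053267, plus strand) and Mrps26 (chr2:130563507-130563756, plus strand) lower. Capitals mark a match on either strand to the NRF1 palindrome or its short form TGCGCATGC (which can share bases), CCGGAAG (ETS factors), AAGATGGC (YY1), GGGCGG (Sp1), CACGTG (E-box) or CCAAT.
Mrpl39: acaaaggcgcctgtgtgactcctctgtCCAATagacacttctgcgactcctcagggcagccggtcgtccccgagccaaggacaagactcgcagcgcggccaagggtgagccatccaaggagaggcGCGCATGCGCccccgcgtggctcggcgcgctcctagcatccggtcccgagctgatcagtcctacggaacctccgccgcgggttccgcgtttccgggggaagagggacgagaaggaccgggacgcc
Mrps22: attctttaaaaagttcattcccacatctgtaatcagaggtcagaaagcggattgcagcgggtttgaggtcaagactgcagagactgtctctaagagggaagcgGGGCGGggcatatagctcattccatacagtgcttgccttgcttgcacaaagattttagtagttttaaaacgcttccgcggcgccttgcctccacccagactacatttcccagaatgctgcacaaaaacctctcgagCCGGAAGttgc
Mrpl3: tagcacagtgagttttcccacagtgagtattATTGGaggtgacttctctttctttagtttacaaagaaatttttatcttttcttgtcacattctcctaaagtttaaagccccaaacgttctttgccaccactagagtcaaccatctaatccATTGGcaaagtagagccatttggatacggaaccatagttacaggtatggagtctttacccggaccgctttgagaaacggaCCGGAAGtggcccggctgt
Mrps26: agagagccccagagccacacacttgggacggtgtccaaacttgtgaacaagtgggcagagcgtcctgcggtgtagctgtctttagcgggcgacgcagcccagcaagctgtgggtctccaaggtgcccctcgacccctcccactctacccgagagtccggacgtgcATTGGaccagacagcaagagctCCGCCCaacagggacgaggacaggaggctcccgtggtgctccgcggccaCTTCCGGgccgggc
Of these, Mrpl39 has an NRF1 match and CCAAT, Mrps22 ETS and Sp1, Mrpl3 ETS and CCAAT, and Mrps26 ETS, Sp1 and CCAAT.

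NRF1 and the ETS factor GABP are known regulators of nuclear genes for mitochondrial proteins. In the windows, from 250 bases before to 50 after the start, the ETS letters were found in 25 of 67 (37.3%), against 15% of 14452 genes of the array with a window and 8.86% of all 32851 windows. The YY1 letters were found in 12 (17.9%), against 4.07% and 2.75%. The full NRF1 palindrome was found in 3 (4.48%, against 1.75% and 0.971%) and its short form in 6 (8.96%, against 2.66% and 1.52%). By contrast, the Sp1 letters (50.7%, against 57.3% and 35.7%), the E-box (7.46%, against 10.2% and 7.15%) and CCAAT (38.8%, against 42.0% and 37.4%) stood at or below the share of the genes of the array. Among genes lower in hepatocytes than in MSC, 3 of the 10 with a window held the ETS letters and 7 held CCAAT. Among those higher, 2 of 9 and 3 of 9 did. In the lower and the higher genes, the Sp1 letters were found in 6 and 5, and the E-box and the full NRF1 palindrome each in 0 and 1. The YY1 letters and the short NRF1 form were found in 0 of either. These differences were not tested. Such matches describe letters and not binding.

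All members had group means above the lower quartiles of all probe sets in an array, which were 3.43 to 3.70. The lowest group mean was 6.44, for Mrps27 in HD28, beside a median of 6.08 for the means of all genes. Detection was not tested, as no detection calls came with the values. The median over the 76 genes was 9.43, 8.91 and 9.13 in the MSC arrays and 8.69, 8.77 and 8.64 in HD28. It was 9.20, 9.46 and 9.14 in dHD28, 9.18, 8.90 and 9.02 in hepatocytes, and 9.22, 9.39 and 9.09 in MLC. Thus the 3 HD28 arrays had the 3 lowest medians, and the hepatocyte arrays overlapped those of the 3 other groups. Fewer cells of a type and less RNA per cell cannot be told apart in such bulk samples. The moderated F test over the 5 groups called 35 of the 76 genes, beside 46.8% of all genes. It called 53 with a block for spike-in class and 22 with the arrays of low signal alone, fits for which the share of all genes is not given.

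**Figure D1:**
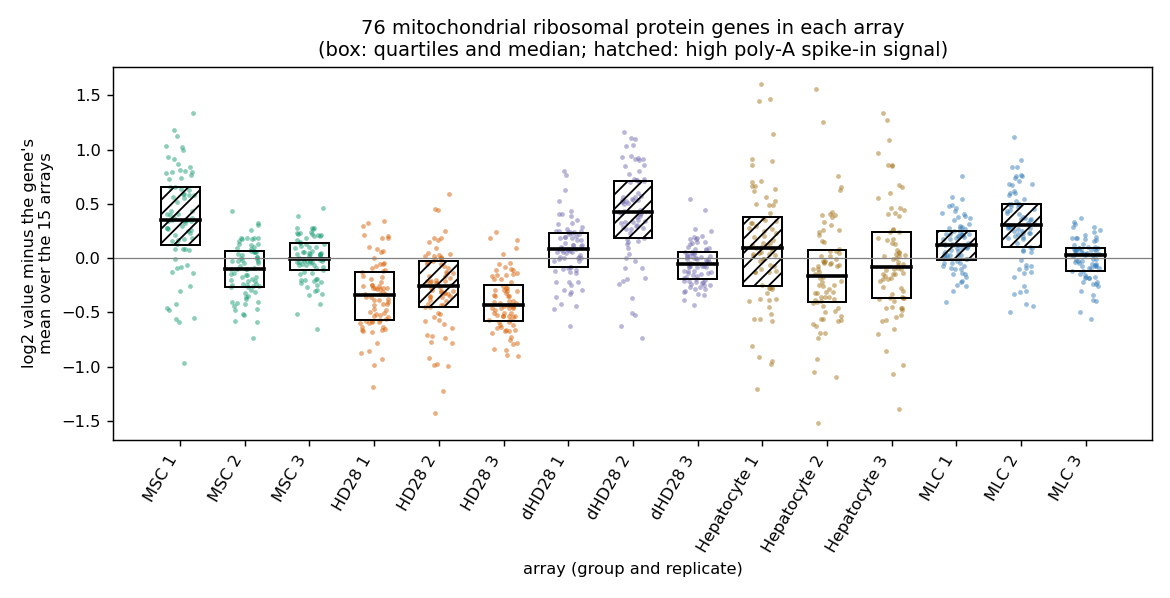
Each point is 1 of the 76 genes in 1 array, as its log2 value minus its own mean over the 15 arrays (y axis), by group and replicate (x axis). Boxes show quartiles and median, and hatching marks high poly-A spike-in signal. The 3 HD28 boxes sit lowest, and the hatched array stands highest in MSC, dHD28 and hepatocytes.

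The class of spike-in signal moved with these genes within groups. In a model with the class beside the group, 30 members were higher in the arrays of high signal (7.16% of all genes were) and Mrps18c was lower (10.1% of all genes were). The difference was positive for 66 of 76, with a median of 0.26 against 0.03 over all genes, and reached 0.78 for Mrpl28 and 0.72 for Mrpl12. Each group but MLC holds 1 array of high signal, so the class adds to the spread within a group. In MLC, replicates 1 and 2 were both of high signal. In comparisons with MLC the class is therefore also unequal between the groups and can shift the change itself. Medians within each class are therefore given beside the changes.

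The comparison of HD28 with MSC shows the genes after the hepatogenic protocol. Of the 76 genes, 11 were lower in HD28 (14.5%) and 0 higher, where 6.22% of all genes were called lower and 4.49% higher. The change was negative for 65 of 76, with a median of -0.49 against -0.08 over all genes, and unadjusted p was under 0.05 for 35 of 76 (23.9% of all genes). Arrays of the groups did not overlap for 40 genes lower in HD28 (19.0% of all genes) and for 1 higher, Mrps21 (10.7%). The median was -0.40 within the arrays of low spike-in signal and -0.58 within those of high signal, negative for 64 and 66 of the 76 genes.

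Mrps6, counterpart of the bacterial protein S6, was the member of the largest fall. Its level was 10.73, 9.58 and 9.66 in the MSC arrays and 9.10, 7.97 and 8.98 in HD28. All 3 HD28 arrays lay below all 3 MSC arrays, and MSC 1 was the highest. The level in HD28 was 2.47-fold lower (log2 -1.30 ± 0.38, SE, 3 arrays a group, adjusted p = 0.044). A second probe set of the gene gave -1.11 (adjusted p = 0.053), and the call held without MSC 2, HD28 1, dHD28 1, dHD28 2 or MLC 2 and ended without any other single array, with an adjusted p of up to 0.19 (without MSC 1).

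Mrpl35, of the large subunit, had the smallest adjusted p of the 11. It was at 9.70, 9.45 and 9.57 in MSC and at 8.75, 8.75 and 8.79 in HD28. The groups were separated by far more than their spread, with means of 9.57 ± 0.12 and 8.76 ± 0.02 (SD, n = 3). The level in HD28 was 1.75-fold lower (log2 -0.81 ± 0.14, SE, 3 arrays a group, adjusted p = 0.003) and stayed called without each of the 15 arrays in turn, which held for no other of the 11 calls. It rests on the brightest probe set: the others of this gene, with means of 6.09 and 5.36, gave -0.22 and -0.29.

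Other members called lower have bacterial counterparts. In the large subunit these were Mrpl3, which reaches toward the peptidyl transferase centre (-0.79, adjusted p = 0.041), Mrpl11 at the base of the stalk that receives translation factors (-0.60), Mrpl15 (-0.77) and Mrpl18 (-0.78). In the small subunit they were Mrps5 (-0.72), Mrps15 (-0.65) and Mrps18b, a homologue of bacterial S18 that sits at another site (-0.78). Mrpl51 (-0.53) and Mrpl52 (-0.59), which have no bacterial counterpart, complete the 11. The calls of these 9 genes ended without MSC 1 in every case, and without 3 to 13 of the 15 arrays in all. By class, 7 of 47 large-subunit (14.9%) and 4 of 29 small-subunit symbols (13.8%) were lower, beside 6.22% of all genes, with medians of -0.48 and -0.51. Among genes with a bacterial counterpart 9 of 47 were lower (19.1%), and among those specific to mitochondria 2 of 29 (6.9%, near the share of all genes). The median changes did not differ in that way, at -0.45 and -0.51, with 39 of 47 and 26 of 29 changes negative. Arrays lay lower without overlap for 22 of 47 and 18 of 29 (19.0% of all genes). The difference between these classes was not tested.

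Several larger changes did not pass the test. Mrpl12, the stalk protein that binds translation factors, was at 11.18, 9.62 and 9.84 in MSC and 8.96, 9.15 and 9.31 in HD28 (log2 -1.07 ± 0.41, adjusted p = 0.12). The groups did not overlap, yet MSC 1 was more than 1 log2 unit above the other MSC arrays. Mrpl37 (-1.15), Mrps27 (-0.88), Mrps26 (-0.85) and Mrps7 (-0.83) were also without overlap, with MSC 1 the highest array and with adjusted p of 0.078, 0.14, 0.092 and 0.16. Mrps21, counterpart of bacterial S21, was the member without overlap in the other direction, at 9.14, 9.39 and 9.12 in MSC and 9.59, 9.71 and 9.51 in HD28 (log2 0.39 ± 0.17, adjusted p = 0.18).

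The count of 11 depended on the arrays, the scaling and the model. After quantile normalization, centring on array medians or centring on 9 genes listed as steady, it was 5, 2 and 7. Under these scalings 1057, 974 and 1148 of all 18193 genes were lower, beside 1132 on the deposited scale. Medians of the member changes were -0.47, -0.53 and -0.57 there. The count was 29 with a block for spike-in class (9.17% of all genes were lower) and 22 when HD28 replicate 3 was left out of that fit too. With the class ignored it was 1 without MSC 1, 2 without HD28 3 and 4 without HD28 1, HD28 2 or MSC 3, and 1 with the arrays of low signal alone. For the fits that left out arrays the share of all genes is not given. Whether calls fell alike over all genes is therefore not shown.

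The comparison of dHD28 with HD28 shows the return to stromal medium. Of the 76 genes, 17 were higher in dHD28 (22.4%) and 1 lower, Mrps21, where 7.97% of all genes were higher and 6.11% lower. The change was positive for 69 of 76, with a median of 0.50 against 0.05 over all genes. It was 0.41 within the arrays of low and 0.68 within those of high spike-in signal. Arrays did not overlap for 41 higher genes (17% of all genes) and 1 lower gene (12.3%). This comparison and the one of HD28 with MSC share the HD28 arrays, so their opposite signs are not independent.

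Mrpl12 had the largest rise, 2.69-fold (log2 1.43 ± 0.41, SE, 3 arrays a group, adjusted p = 0.033). It went from 8.96, 9.15 and 9.31 in HD28 to 10.37, 11.31 and 10.03 in dHD28, without overlap. Its call ended without any 1 of HD28 1 to 3, dHD28 1 or dHD28 2 (adjusted p up to 0.15). Mrpl37, specific to mitochondria, stood at 7.04, 6.99 and 7.07 in HD28 and 8.21, 9.01 and 7.90 in dHD28 (2.53-fold, adjusted p = 0.034). Its HD28 arrays differed by less than 0.1 log2 units, and all dHD28 arrays were higher. Mrps6 rose by 2.43-fold to 9.47, 10.49 and 9.94 (log2 1.28 ± 0.38, SE, 3 arrays a group, adjusted p = 0.04), and its second probe set gave 1.3 (adjusted p = 0.021). Mrpl45, which holds the ribosome to the inner membrane at the exit of the peptide tunnel, went from 8.62, 8.62 and 8.11 to 9.70, 9.62 and 8.97 (log2 0.98 ± 0.27, adjusted p = 0.031). No array of dHD28 was as low as the highest of HD28.

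Mrpl35 was at 9.76, 9.62 and 9.37 in dHD28, a range that overlaps with MSC (1.77-fold above HD28, log2 0.82 ± 0.14, adjusted p = 0.0022), and was the call that no single array ended. The other genes called higher, named after their values were seen, were Mrpl40 (0.92), Mrpl18 (0.86), Mrpl19 (0.83), Mrps5 (0.80), Mrps10 (0.79), Mrps18b (0.74), Mrps23 (0.73), Mrpl15 (0.73), Mrps15 (0.71), Mrpl11 (0.69), Mrpl22 (0.53) and Mrpl51 (0.50), with log2 changes in parentheses. Mrpl22 lines the tunnel through which the new peptide leaves. Each of these 12 calls ended without dHD28 2, except that of Mrpl18, which ended without dHD28 1 (adjusted p = 0.051). Mrps21 went from 9.59, 9.71 and 9.51 to 8.84, 9.08 and 9.27 (log2 -0.54 ± 0.17, SE, 3 arrays a group, adjusted p = 0.049), a call that held without dHD28 3, Hepatocyte 1, Hepatocyte 2 or MLC 1 and ended without any other single array.

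Arrays of HD28 and dHD28 with the same replicate number deviated together from their group means and also share the spike-in class. With the replicate number as a block, 23 genes were higher (8.64% of all genes) and 0 lower (6.8%). With a block for spike-in class, 37 were higher (11.1%). The count of 17 fell to 2 without dHD28 2, to 7 without dHD28 1 or HD28 3, to 9 without HD28 2 and to 11 without HD28 1, and rose to 27 without MSC 1. It was 4 with arrays centred on 9 genes listed as steady (5.59% of all genes). Shares of all genes are not given for the fits without single arrays. Fewer calls over the whole array therefore cannot be told there from a change in these genes.

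Neither dHD28 nor MLC differed detectably from MSC in any of these genes. Against MSC, limma called 0 of 76 in dHD28 and 0 in MLC, as it did for 0.0% of all genes in both comparisons. Unadjusted p was under 0.05 for 1 member in dHD28 (1.13% of all genes) and for 0 in MLC (0.5% of all genes). The changes ran from -0.41 ± 0.18 (Mrpl52) to 0.50 ± 0.27 (Mrpl45) in dHD28 and from -0.17 ± 0.18 (Mrpl52) to 0.37 ± 0.19 (Mrpl32) in MLC, with a median of 0.06 in each. In MLC the median differed in sign between the classes of spike-in signal: it was 0.05 within the arrays of low signal and -0.17 within those of high signal, where 58 of 76 changes were negative. In dHD28 it was 0.06 within each class. The change of Mrpl52 in dHD28 rests on its brightest probe set: others, with means of 9.56 and 9.85, gave -0.03 and -0.07. Arrays did not overlap with MSC for Mrpl22 (0.15) and Mrpl52 in dHD28 (1.44% of all genes upward and 3.5% downward), and for Mrpl13 (0.23) and Mrps25 (0.25) in MLC (1.5% upward and 3.78% downward). Standard errors of 0.14 to 0.41 mean that differences of this size could not be told from none.

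In primary hepatocytes single members stood higher or lower than in MSC. Of the 76 genes, 10 were higher (13.2%) and 12 lower (15.8%) in hepatocytes, below the 19.6% and 25.1% of all genes. The median change was -0.13 on the deposited scale, and 0.02 after quantile normalization, 0.02 after centring on array medians and 0.38 after centring on 9 genes listed as steady. That last centring shifted the median over all genes by 0.51. Its 9 genes themselves changed by -2.90 to 0.39 in hepatocytes, with 2 called lower. The set of 76 genes as a whole therefore has no settled direction, whereas the spread of its changes, with an SD of 0.66, was wider than the 0.35 of HD28 against MSC. Over all genes these SDs were 1.72 and 0.72. Arrays did not overlap for 13 higher genes (24.7% of all genes) and 18 lower genes (27.9%), and unadjusted p was under 0.05 for 27 (50.8%). Within the arrays of low and high spike-in signal the median was -0.06 and -0.34.

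Mrpl39, whose protein resembles a threonyl-tRNA synthetase without being one, differed most among the 5 groups (F = 51.33, adjusted p = 1.8e-06). It was at 8.93, 8.90 and 9.19 in MSC and 11.09, 10.73 and 10.82 in hepatocytes, and between 8.96 and 9.39 in the 9 arrays of the other groups. Only the hepatocyte arrays were high, 3.67-fold above MSC (log2 1.88 ± 0.16, SE, 3 arrays a group, adjusted p = 6.2e-07). HD28 replicate 3, which carries hepatocyte transcripts, was at 9.38, within the range of HD28. A second probe set gave 1.24 in hepatocytes (adjusted p = 3.5e-05).

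Mrps31, of the small subunit and specific to mitochondria, had the same form. Its arrays were at 7.70, 7.26 and 7.18 in MSC and 9.30, 9.39 and 9.11 in hepatocytes, 3.69-fold higher (log2 1.89 ± 0.21, SE, 3 arrays a group, adjusted p = 6.6e-06). Every array of the other 4 groups was below 8, and every hepatocyte array above 9. Mrpl50 (7.27, 7.41 and 7.81 against 9.29, 8.49 and 8.92, log2 1.40 ± 0.38, adjusted p = 0.0077) and Mrpl55 (7.63, 7.24 and 7.50 against 8.55, 8.06 and 8.49, log2 0.91 ± 0.15, adjusted p = 2.4e-04) were higher as well, without overlap. A second probe set of Mrpl50, with a mean of 6.80, gave 0.80 and was not called (adjusted p = 0.098). Mrpl1, part of the mobile stalk beside the exit site for spent tRNA, was higher by 1.07 ± 0.29 (adjusted p = 0.0076), and a second probe set gave 2.01. Mrpl24, near the tunnel exit, was higher by 0.80 ± 0.17 (adjusted p = 0.0018). Mrps22 (0.77), Mrps18c (0.62) and Mrpl46 (0.53) were called with smaller changes. Mrpl38 is uncertain: its brightest probe set, of a kind that can detect related transcripts, gave 1.04 (adjusted p = 0.019), and the others gave -0.62 and -0.0027.

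Among the genes lower in hepatocytes, Mrpl54 was at 9.64, 8.70 and 9.11 in MSC and 7.70, 7.13 and 7.59 in hepatocytes, 3.21-fold lower (log2 -1.68 ± 0.29, SE, 3 arrays a group, adjusted p = 2.8e-04). Mrps26 went from 10.93, 10.09 and 10.03 to 9.09, 8.81 and 8.51 (2.92-fold, log2 -1.55 ± 0.30, adjusted p = 7.5e-04). Both are specific to mitochondria, and in both every hepatocyte array lay below every array of the other 4 groups. Mrps6 was lower in hepatocytes too, at 8.18, 8.34 and 8.54 (log2 -1.64 ± 0.38, adjusted p = 0.003). Mrpl3 was at 8.10, 8.08 and 8.31 against 9.87, 9.31 and 9.14 in MSC (log2 -1.28 ± 0.23, adjusted p = 3.9e-04), and a second probe set gave -1.69. A pair of dimmer probe sets of Mrpl3, with means of 5.91 and 4.04, gave 0.22 and -0.02. Mrps25, in the small subunit, was at 7.42, 7.69 and 7.74 against 8.65, 8.57 and 8.61 (log2 -0.99 ± 0.16, adjusted p = 1.7e-04). Its groups did not overlap, and a second probe set gave -2.06. Mrpl19, of the large subunit, changed by log2 -0.86 ± 0.21 (adjusted p = 0.0048).

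The remaining genes called lower were Mrps36 (-0.75), Mrps14 (-0.69), Mrps17 (-0.67), Mrps15 (-0.65), Mrpl52 (-0.55) and Mrpl11 (-0.55), with log2 changes in parentheses. Of them, Mrps14, Mrps15, Mrps17 and Mrpl11 have bacterial counterparts. Other probe sets of mean 7 or more gave 0.15 for Mrps14, -0.32 for Mrps15, and -0.25 and 0.02 for Mrpl11, none of them called. Those of Mrpl52 gave -0.70 and -0.71 and were called. By class, 7 of 47 large-subunit symbols were higher and 5 lower (14.9% and 10.6%), and 3 of 29 small-subunit symbols were higher and 7 lower (10.3% and 24.1%), none above the 19.6% and 25.1% of all genes. Among genes with a bacterial counterpart 4 were higher and 7 lower of 47 (8.51% and 14.9%), and among those specific to mitochondria 6 were higher and 5 lower of 29 (20.7% and 17.2%), with an SD of the changes of 0.53 and 0.84. Calls of 6 of the 10 higher and 10 of the 12 lower genes stood without each array in turn. Those that ended were Mrps22 (without MSC 1), Mrpl38 (MSC 2, MSC 3 or Hepatocyte 1), Mrpl46 and Mrpl52 (these or Hepatocyte 3), Mrpl11 (MSC 1 or Hepatocyte 2) and Mrps18c (6 arrays). Centring on the steady genes gave 25 higher and 5 lower (50.1% and 16.4% of all genes). Centring on array medians gave 10 and 6, where 4302 and 3903 of all 18193 genes were called. With a block for spike-in class 22 were lower (27.5% of all genes), and 21 without HD28 replicate 3 as well. RNA quality and the markers of other liver cells differ between these groups as given above, and their part in the result was not tested.

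**Figure D2:**
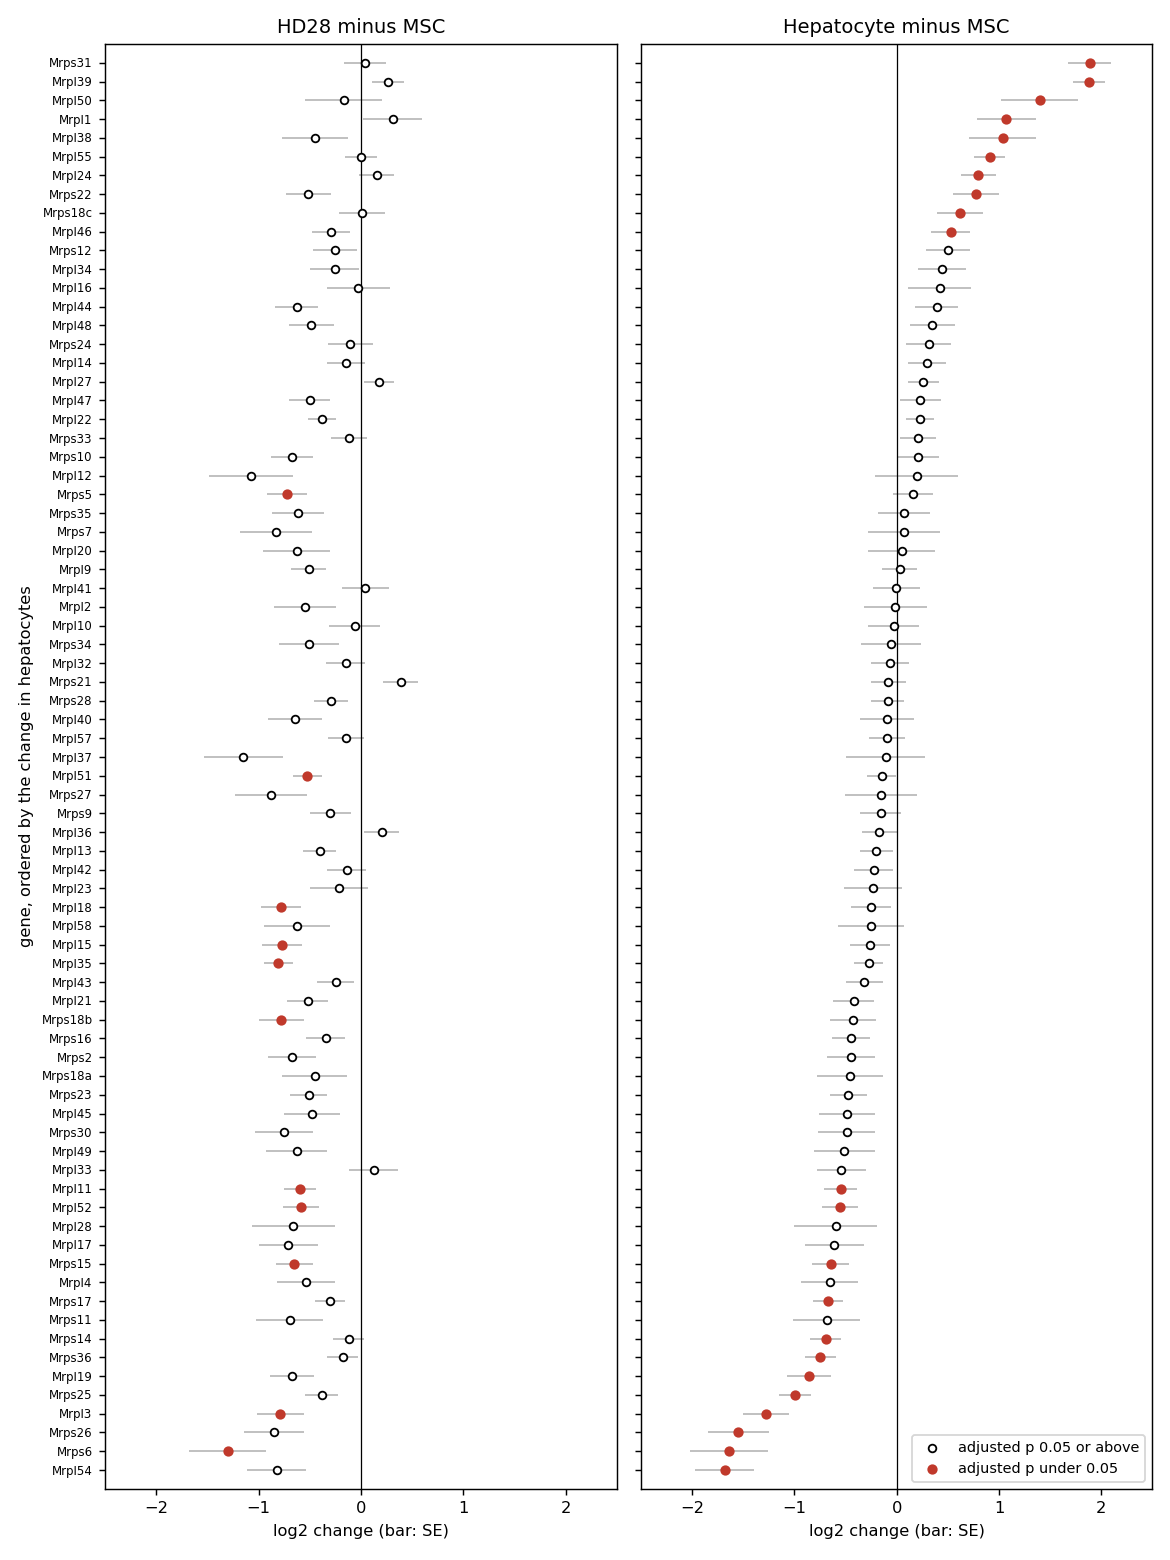
Log2 change of each of the 76 genes in HD28 (left) and hepatocytes (right) against MSC, ordered by the change in hepatocytes, with SE bars. Filled points have an adjusted p under 0.05. Calls in HD28 lie to the left of 0, and calls in hepatocytes lie on both sides, from Mrpl54 (-1.68) to Mrps31 (1.89).

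The comparison of MLC with hepatocytes shows the cells after stepwise TGF-β1 in stromal medium. Here 15 genes were higher and 10 lower in MLC, beside 25.2% and 21.4% of all genes. The median was 0.16, and -0.39 after centring on the steady genes, which gave 5 higher and 24 lower (15.9% and 54.2% of all genes). Arrays did not overlap for 27 higher genes (28.8% of all genes) and 12 lower genes (28.3%), and unadjusted p was under 0.05 for 30 (53.1%). Within the arrays of low and high spike-in signal the median was 0.11 and 0.16. The hepatocyte arrays are shared with the comparison above, so the values stand side by side and are not separate evidence. The markers of Kupffer and endothelial cells that hepatocyte arrays carried were at 3.43 to 3.80 and 4.29 to 4.43 in MLC.

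Mrpl39 was at 9.34, 9.04 and 9.10 in MLC, 3.29-fold below hepatocytes (log2 -1.72 ± 0.16, SE, 3 arrays a group, adjusted p = 1.3e-06), and Mrps31 at 7.69, 7.71 and 7.28, 3.27-fold below (adjusted p = 1.5e-05). Mrpl50 (log2 -1.30 ± 0.38), Mrpl55 (-0.91 ± 0.15), Mrpl24 (-0.91 ± 0.17) and Mrpl1 (-0.81 ± 0.29) were lower too, with log2 changes of -0.61, -0.60 and -0.50 for Mrps22, Mrps12 and Mrpl46. The second probe set of Mrpl50 gave -0.72 and was not called (adjusted p = 0.13). Probe sets of Mrpl38 were called in opposite directions, at -1.01 and 0.78. In the other direction, Mrps26 was at 10.47, 10.80 and 9.95 in MLC (3.04-fold above hepatocytes, log2 1.60 ± 0.30, SE, 3 arrays a group, adjusted p = 5.6e-04), Mrpl54 at 8.84, 9.41 and 8.93 (log2 1.59 ± 0.29) and Mrps6 at 9.66, 10.50 and 9.72 (log2 1.61 ± 0.38). None of these MLC arrays overlapped with hepatocytes. Mrpl3 (1.25 ± 0.23), Mrps25 (1.24 ± 0.16) and Mrpl19 (1.06 ± 0.21) were higher as well. Mrps25 had its highest array of all groups in MLC (9.15 in replicate 1).

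Smaller rises were called for Mrpl45 (0.77), Mrps14 (0.69), Mrps17 (0.67), Mrpl33 (0.67), Mrps36 (0.67), Mrpl11 (0.61), Mrps15 (0.61), Mrps16 (0.49) and Mrpl13 (0.43), with log2 changes in parentheses. The directions of Mrps16 and Mrpl13 turned to -0.07 and -0.13 after centring on the steady genes. Other probe sets of mean 7 or more gave -0.11 for Mrps14, 0.29 for Mrps15, and 0.22 and -0.11 for Mrpl11, none of them called. Those of Mrpl13 gave 0.52, which was called, and 0.42, which was not. Without each array in turn, 10 of the 15 higher and 4 of the 10 lower genes stayed called. Among the lower genes, Mrpl50 ended without Hepatocyte 1 (adjusted p = 0.0505), Mrpl1 without Hepatocyte 1, Hepatocyte 3 or MLC 2, Mrpl38 without Hepatocyte 1, MLC 1 or MLC 3, Mrps12 without Hepatocyte 3, MLC 1 or MLC 3, and Mrps22 and Mrpl46 without 5 and 9 arrays. Among the higher genes, Mrps15 ended without Hepatocyte 1 or MLC 2, and Mrpl45, Mrpl33, Mrps16 and Mrpl13 without 4, 5, 8 and 12 arrays. The count of lower genes was 5 without Hepatocyte 1 and 6 without Hepatocyte 3 or MLC 3.

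**Figure D3:**
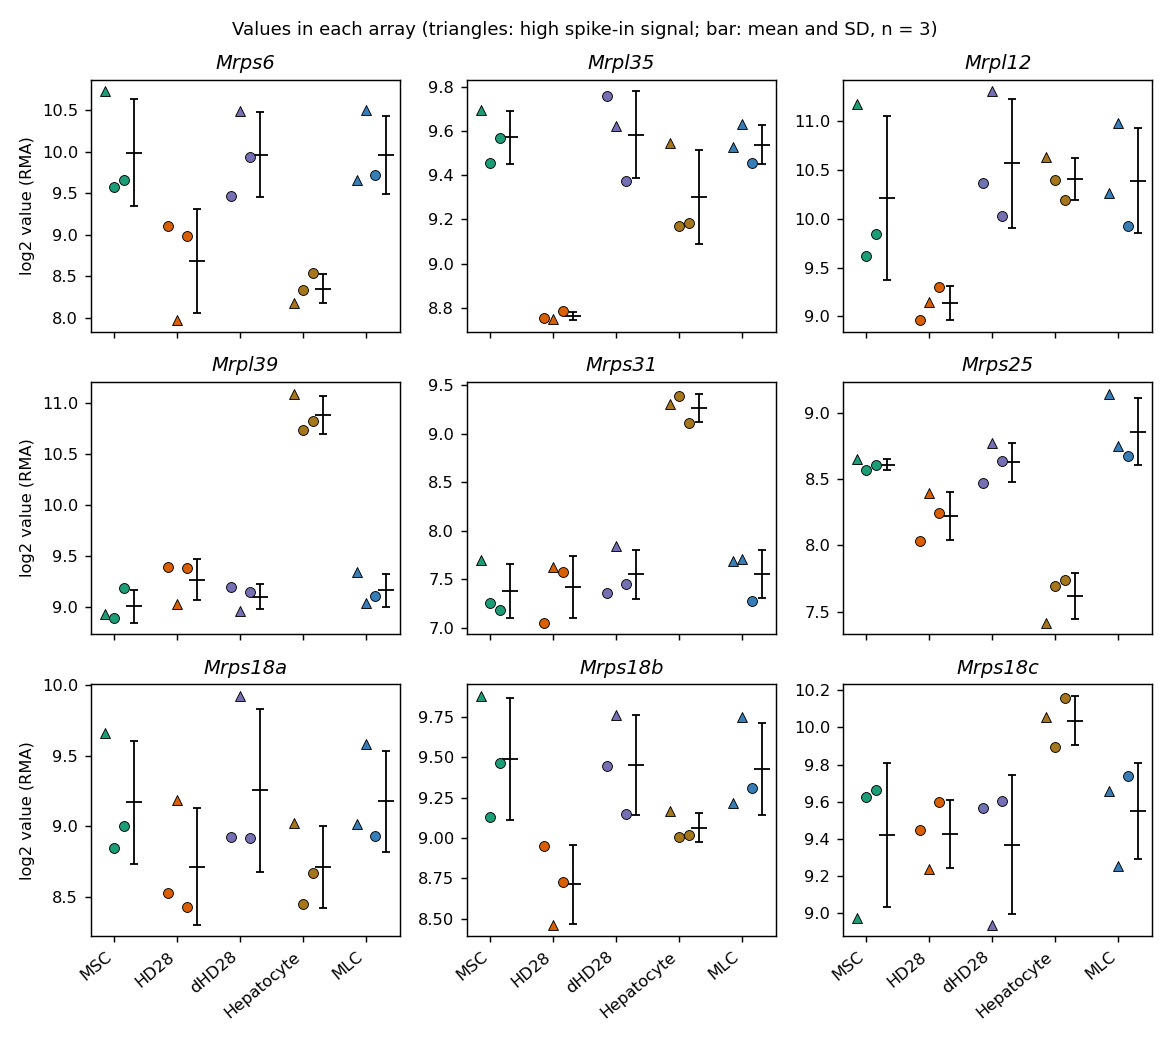
Log2 values (y axis) of 9 genes in each array of the 5 groups (x axis), with triangles for high spike-in signal and bars for mean and SD (n = 3). Mrpl39 and Mrps31 stand high in hepatocytes and Mrps25 low, Mrpl35 is low in HD28, Mrps6 is low in HD28 and hepatocytes, and the bottom panels show the Mrps18 family.

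The changes on both routes into stromal medium, dHD28 minus HD28 and MLC minus hepatocytes, share no arrays. Of the 17 genes higher in dHD28 and the 15 higher in MLC, 5 were in both (29.4% of the first and 33.3% of the second), namely Mrpl11, Mrpl19, Mrpl45, Mrps15 and Mrps6. Of the 17 genes higher in dHD28, 0 were lower in MLC. The same overlaps over all genes were not counted, so these counts are not read as a likeness of the routes. The difference between the changes was tested directly in the same model, and it was called for 17 of 76 genes, beside 29.2% of all genes. The change was lower on the hepatocyte route for 13 (13.2% of all genes) and higher for 4 (16%). The count of 17 was 29 with a block for spike-in class (35.9% of all genes), 33 after centring on the steady genes (44.8%) and 6 with the arrays of low signal alone. It was 8 without HD28 1, 10 without dHD28 1, dHD28 2 or MLC 3, and 11 without HD28 2 or MLC 1. Shares of all genes are not given for the fits that left out arrays.

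Mrps31 changed by 0.13 ± 0.21 from HD28 to dHD28 and by -1.71 ± 0.21 from hepatocytes to MLC, a difference of -1.84 ± 0.29 (adjusted p = 4.4e-04). For Mrpl39 the changes were -0.17 and -1.72 (difference -1.55 ± 0.22, adjusted p = 2.0e-04), and for Mrpl50 0.52 and -1.30 (adjusted p = 0.02). These genes were high in hepatocytes but not in HD28. For Mrpl50 a second probe set gave a difference of -1.15, which was not called (adjusted p = 0.12). Mrps5, Mrps10 and Mrpl35 rose in dHD28 (0.80, 0.79 and 0.82) and changed by -0.13, -0.10 and 0.24 in MLC, with differences called at adjusted p of 0.022, 0.035 and 0.046. Dimmer probe sets gave differences that were not called. These were 0.37, -0.43, -0.29 and -0.39 for Mrps5, 0.10 for Mrps10, and -0.34 and -0.36 for Mrpl35. Mrps25 changed by 0.40 and 1.24 (difference 0.84 ± 0.22, adjusted p = 0.013). Mrpl12 rose in dHD28 and changed by -0.02 in MLC, and its difference of -1.45 ± 0.58 did not pass (adjusted p = 0.078). The differences of Mrps31, Mrpl39 and Mrps25 held without each array in turn, that of Mrpl50 ended without dHD28 1 (adjusted p = 0.051), and those of Mrps5, Mrps10 and Mrpl35 ended without 4, 9 and 11 arrays.

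**Figure D4:**
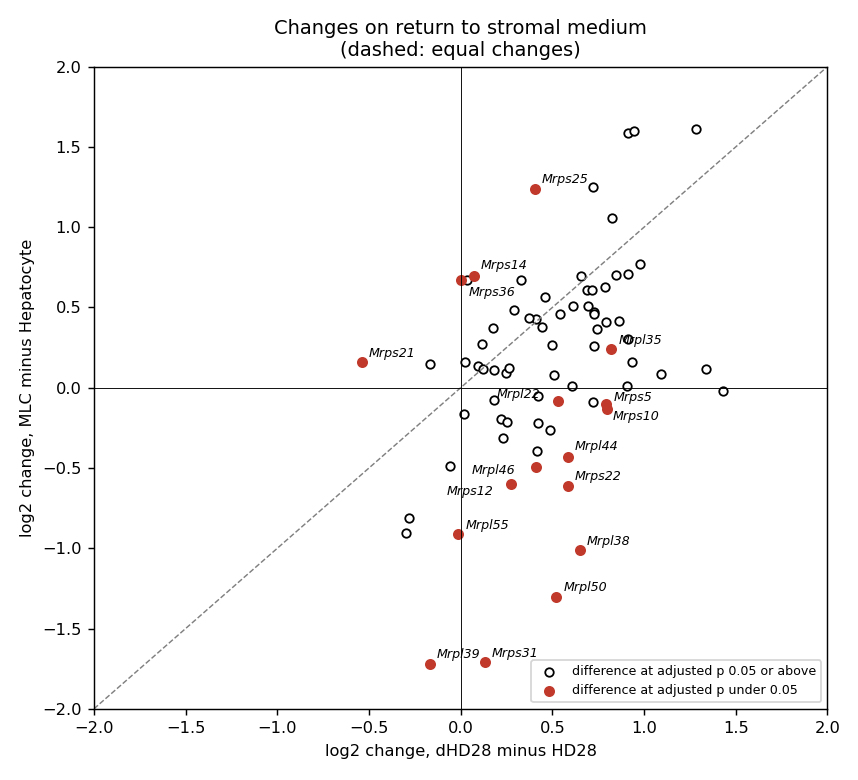
Log2 change from HD28 to dHD28 (x axis) against that from hepatocytes to MLC (y axis) for the 76 genes, with a dashed line of equal changes. The 17 filled points are genes whose changes differ at an adjusted p under 0.05, with Mrps31 at 0.13 and -1.71 among the farthest below the line.

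Members with particular places were read one by one. The Mrps18 family has 3 genes that descend from 1 bacterial protein. Mrps18c, which keeps the bacterial place in the small subunit, changed by 0.01 ± 0.23 in HD28 and was higher in hepatocytes (0.62 ± 0.23, adjusted p = 0.041). Mrps18b, at another site of the small subunit, was lower in HD28 (-0.78 ± 0.22, adjusted p = 0.04) and changed by -0.43 ± 0.22 in hepatocytes (adjusted p = 0.14). Mrps18a, which sits in the large subunit despite its name, changed by -0.45 ± 0.32 and -0.45 ± 0.32 (adjusted p = 0.44 and 0.28). Calls of Mrps18b in HD28 and Mrps18c in hepatocytes ended without some arrays, 8 and 6 of 15. Differences between the 3 genes were not tested.

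Mrps30, another protein of the large subunit with a small-subunit name, was at 9.29 ± 0.52 in MSC, 8.54 ± 0.04 in HD28 and 8.81 ± 0.13 in hepatocytes (SD, n = 3), with adjusted p of 0.11 and 0.18. Mrps12, of the decoding centre, was at 8.92 ± 0.24 in MSC and 9.42 ± 0.33 in hepatocytes (adjusted p = 0.077) and lower in MLC than in hepatocytes (-0.60 ± 0.22, adjusted p = 0.035). Mrpl41, specific to mitochondria, passed none of these tests, with changes of 0.04 in HD28 and -0.0014 in hepatocytes. Mrps36, since assigned to the 2-oxoglutarate dehydrogenase complex rather than the ribosome, was lower in hepatocytes (-0.75 ± 0.15, adjusted p = 0.0012) and changed by -0.18 in HD28.

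Probe sets of 1 gene often read different parts of its transcript. For the 19 members with at least 2 probe sets of mean 7 or more, all probe sets changed in the same direction for 17 in HD28 against MSC, 17 in dHD28 against HD28, 14 in hepatocytes against MSC and 16 in MLC against hepatocytes. When the mean of the probe sets stood for a gene, the genes lower in HD28 numbered 6.

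Other genes of mitochondrial translation give a setting for these changes. Their counts stand beside 4.49% of all genes higher and 6.22% lower in HD28 and 19.6% and 25.1% in hepatocytes. Of 4 ribosomal proteins with other symbols, 0 were called in HD28 against MSC. On return 2 were higher, Gadd45gip1 (1.42) and Ptcd3 (0.62). Dap3, which binds GTP in the small subunit, was lower in hepatocytes (-0.72) and higher in MLC than in hepatocytes (0.81). Of 12 translation factors, the elongation factor Tsfm was lower in HD28 (-0.86, adjusted p = 0.027) and higher in dHD28 (1.13). In hepatocytes 4 factors were higher (33.3%) and 2 lower (16.7%). The higher ones were Gfm2 (1.66), which acts in ribosome recycling, the initiation factors Mtif2 (1.55) and Mtif3 (1.31), and the elongation factor Gfm1 (1.31). The release factor Mtrf1l (-1.34) and the membrane insertase Oxa1l (-0.46) were lower.

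Of 24 assembly and ribosomal RNA factors, Eral1, a chaperone of the small-subunit RNA, was lower in HD28 (-0.79) and higher in dHD28 (0.73), and 5 were higher and 5 lower in hepatocytes (20.8% each, near the shares of all genes), among them Nsun4 (1.25), Trub2 (-1.43) and Mrm1 (-1.33). Of 16 mitochondrial tRNA synthetases, Ears2 (-1.04) and Yars2 (-1.01) were lower in HD28 and higher in dHD28 (1.18 and 1.52), while 3 were higher and 2 lower in hepatocytes (18.8% and 12.5%, below the shares of all genes), led by Nars2 (1.57). Of 13 genes for expression and upkeep of mitochondrial DNA, 0 were called in HD28, and 4 were higher (30.8%) and 0 lower in hepatocytes, namely the polymerase subunit Polg2 (1.00), Top1mt (0.99), Lrpprc (0.98) and the transcription factor Tfam (0.70). Of 10 regulators of mitochondrial biogenesis, Pprc1 was lower in HD28 (-1.03) and in hepatocytes (-2.47). In hepatocytes 3 of the 10 were higher, Ppargc1a (1.68), Gabpa (1.36) and Ppargc1b (1.03), and 4 lower, Pprc1, Gabpb1 (-1.57), Myc (-1.55) and Nrf1 (-0.86), which is 30% and 40%.

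The oxidative phosphorylation complexes that this ribosome helps to build and the cytosolic ribosome are given for comparison. Of 82 nuclear genes for subunits of oxidative phosphorylation, 2 were higher and 2 lower in HD28, with a median of -0.01, and 26 were higher and 2 lower in hepatocytes, with a median of 0.35. Examples are Cox7a1 (1.65) and Sdha (1.40). Of 45 cytosolic ribosomal protein genes, 0 were higher and 11 lower in HD28 (median -0.35), and 2 higher and 39 lower in hepatocytes (median -0.92). Of 21 cell cycle genes, 19 were lower in HD28 and 21 in hepatocytes. Thus the median of the mitochondrial ribosomal protein genes, -0.49 in HD28 and -0.13 in hepatocytes, lay below that of the cytosolic set in HD28 and above it in hepatocytes. Differences between the lists were not tested.

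**Figure D5:**
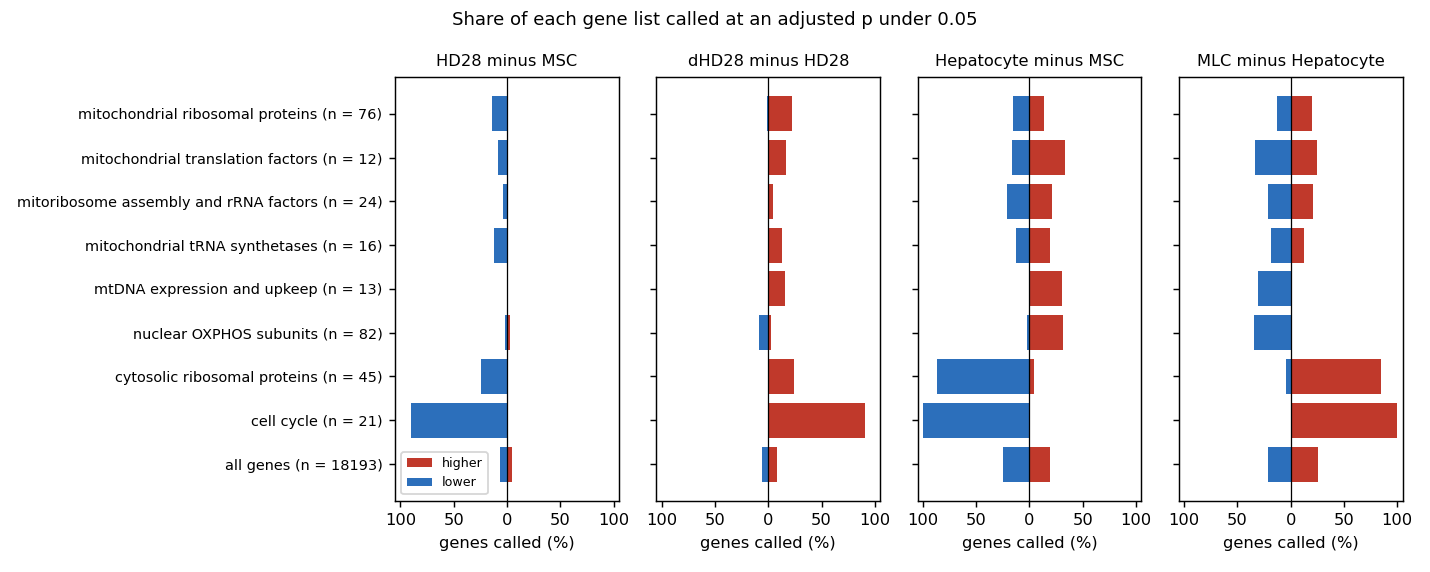
Share of each gene list called higher (right of 0) or lower (left of 0) at an adjusted p under 0.05 in 4 comparisons, beside all 18193 genes. Of the 76 mitochondrial ribosomal protein genes, 11 are called lower in HD28, 17 higher and 1 lower in dHD28, and 10 higher and 12 lower in hepatocytes, where cytosolic ribosomal protein genes are mostly lower.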

How the data were processed

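Total RNA (5 µg) was labelled and hybridised to Affymetrix arrays, 1 array per sample, per the labels. The deposited values were made by the authors with RMA, which corrects background, normalises quantiles and summarises probes, per the submitters' processing notes; its version is not given in the sources used here. The values are taken as log2 from their range (1.32 to 14.15), since the deposited table does not name a base. No detection calls came with them, and the number of arrays limits the precision. Of 45101 probe sets, 34945 carried 1 symbol, 932 several, 9160 none and 64 were controls; gene IDs of 34741 matched RefSeq (GRCm38.p6). Genes are represented by the probe set of highest mean.

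A model of 5 group means over 15 arrays (10 residual degrees of freedom) was fitted with limma 3.58.1 in R 4.3.3 (lmFit, eBayes), two-sided, and checked on simulated data. Errors of changes are SE that pool all groups. The members and lists were chosen with earlier results of these data known. Members were named by rule: per comparison the 6 highest and 6 lowest changes without overlap of arrays, the 10 largest F statistics, and Mrpl12, Mrpl41, Mrps12, Mrps30, Mrps36, the Mrps18 genes and those with opposed probe sets; from other lists, up to 3 per comparison. Further members and other genes called were named after their values were seen. The class of spike-in signal is the mean of 24 poly-A control probe sets.

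Same-number pairs of HD28 and dHD28 correlated in their deviations from the group means (0.32, 0.28 and 0.12). In every other comparison of a pair of groups at least 1 pair was under 0.1. Pairing is not shown by this, since HD28 and dHD28 of the same number share the spike-in class and the labels state no pairing. Hepatocytes and MSC, also matched in class by number, gave 0.25, 0.23 and 0.07. The main model is unpaired, and the replicate block is an alternative. Alternatives changed the choice of probe set, the scaling, dim and cross-hybridising probe sets, limma's trend and robust options, the arrays fitted, a fold limit of 2, blocks for the replicate number or for the spike-in class, low-signal arrays alone, and omission of single arrays.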

Additional observations from a re-analysis of the deposited data

Results flagged for a closer look

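For 17 genes the change on return to stromal medium differed between the routes by the direct test in limma (MLC minus hepatocytes, minus dHD28 minus HD28, adjusted p under 0.05), beside 29.2% of all genes. In log2 units the difference was negative for Mrps31 (-1.84), Mrpl50 (-1.82), Mrpl38 (-1.66), Mrpl39 (-1.55), Mrps22 (-1.19), Mrpl44 (-1.02), Mrps5 (-0.93), Mrpl46 (-0.91), Mrpl55 (-0.90), Mrps10 (-0.89), Mrps12 (-0.88), Mrpl22 (-0.61) and Mrpl35 (-0.58). It was positive for Mrps14 (0.62), Mrps36 (0.67), Mrps21 (0.70) and Mrps25 (0.84). Calls of 6 of them (Mrps31, Mrpl38, Mrpl39, Mrps22, Mrpl55 and Mrps25) stood without each array in turn. That of Mrpl38 rests on its brightest probe set, and the others gave -0.63 (adjusted p = 0.067) and -0.21 (adjusted p = 0.74). A second probe set of Mrps14 gave 0.01 (adjusted p = 0.97), and one of Mrpl50 gave -1.15 (adjusted p = 0.12). Dimmer probe sets of Mrps5, Mrps10 and Mrpl35 were not called either. For Mrpl39 and Mrps25 a second probe set gave -1.27 and 1.88, both called. Groups of 3 arrays were not screened for single outlying arrays.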

How the results depend on the processing

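The labels share replicate numbers across groups. With the replicate number as a block, members lower in HD28 numbered 11, higher in dHD28 than HD28 23 and lower 0; hepatocytes had 10 higher and 13 lower and MLC against hepatocytes 17 and 10, the F test called 36 and the difference between returns 14. Against 11 genes lower in HD28, there were 6 with the mean of probe sets and 7 without cross-hybridising probe sets. There were 5 after quantile normalization, 2 after centring on array medians and 7 on steady genes. Under these scalings 1057, 974 and 1148 of all 18193 genes were lower in HD28. The members numbered 1 with only the arrays compared, 1 with a fold of at least 2 and 1 with low-signal arrays only. They numbered 29 with a block for spike-in class, and 22 with that block and without HD28 3. Against 17 higher in dHD28 than HD28, there were, where they moved, 11 without cross-hybridising probe sets, 10 and 4 by the centrings, 8 with only the arrays compared, 3 by fold, 37 and 31 by the class blocks and 10 with low-signal arrays. The 1 lower gene was 0 under probe-set means, without cross-hybridising probe sets, either centring, trend and robust options, only the arrays compared, the fold limit, the replicate block, the class block without HD28 3, and low-signal arrays. In hepatocytes, 25 were higher and 5 lower on steady genes and 5 and 4 by fold, with 6 lower on array medians and 22 and 21 by the class blocks. In MLC against hepatocytes, 9 were higher on array medians, 5 higher and 24 lower on steady genes, 6 and 4 by fold, and 6 lower without cross-hybridising probe sets or with low-signal arrays. The F test called 53 with the class block and 22 with low-signal arrays. Differences between returns numbered 11 with probe-set means or trend and robust options, 33 on steady genes, 6 by fold or with low-signal arrays, and 29 and 27 by the class blocks.

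Leaving out 1 array at a time gave 26 to 42 genes by the F test, 1 to 10 lower in HD28, 2 to 27 higher and 0 to 1 lower in dHD28 than HD28, 7 to 10 higher and 11 to 14 lower in hepatocytes, 11 to 18 higher and 5 to 10 lower in MLC than hepatocytes, and 8 to 19 differences between returns. The counts of 0 against MSC in dHD28 and MLC stayed at 0. Shares of all genes are not given for the fits without single arrays. Signs turned for Mrpl38 in hepatocytes without cross-hybridising probe sets (-0.0027), and for Mrpl13 (-0.127) and Mrps16 (-0.0687) in MLC against hepatocytes on steady genes. The steady genes themselves changed by -2.90 to 0.39 in hepatocytes. The cause of these shifts was not tested.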
